A study of Mus musculus with 6 samples.

Results

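This account is about 10 mouse genes of MHC class I antigen presentation, out of 35275 rows in the expression table: B2m, H2-K1, H2-D1, Tap1, Tap2, Tapbp, Psmb8, Psmb9, Erap1 and Nlrc5. They were chosen by name for their place in the pathway, and every one of them had a row. RNA was sequenced from 3T3 cells, an established line of mouse embryonic fibroblasts, in 3 libraries that carried a control construct and 3 that carried a construct to overexpress NNMT, labelled as biological replicates. NNMT (nicotinamide N-methyltransferase) is an enzyme that spends the methyl donor S-adenosylmethionine on nicotinamide. All 6 cultures grew for 48 h in medium without methionine to which 10 µM methionine and 10% dialyzed serum had been added, so low methionine was shared by both groups and the construct was the only labelled difference. The study asked which genes differ in response to NNMT. The labels name neither the promoter of the construct nor how many separately made cell populations the libraries came from, so p-values measure the spread between these libraries. One library of the NNMT group has no replicate number in the table and is called the unnumbered NNMT library.

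MHC class I molecules show peptides from inside a cell to CD8 T cells. The proteasome cuts proteins into peptides, the transporter TAP pumps them into the endoplasmic reticulum, aminopeptidases trim them there, and tapasin holds an empty class I molecule at the transporter until a peptide fits. A class I molecule is a heavy chain joined to beta-2-microglobulin, and it does not reach the surface well without that light chain. Interferons raise the whole set through IRF and STAT factors, and NLRC5 is the transactivator that acts at class I promoters together with the RFX, CREB and NF-Y proteins. Fibroblasts usually express class I at a low to moderate level when no interferon is present.

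The class I heavy chain and B2m promoters are known for a compact row of control elements, and these are shown first because the heavy chains and B2m moved in opposite directions. RefSeq promoters on GRCm38.p6, the build called mm10 in the submitters' notes, were found for 8 of the 10 genes. The 250 bases before the start site were searched on both strands for 4 motifs: an interferon response element core (TTTCNNTT), the NF-kappaB consensus, a cyclic AMP response element core (TGACG) and the CCAAT box (CCAAT). Capitals mark the matches on the gene's own strand, 5′ to 3′, so a match to the other strand appears as its complement. In H2-K1 and H2-D1 the NF-kappaB motif matches at 2 positions that overlap. The windows are chr17:34000348-34000597 (minus strand) for H2-K1, chr17:35262844-35263093 (plus) for H2-D1, chr2:122147437-122147686 (plus) for B2m and chr17:34187306-34187555 (plus) for Tap1.
H2-K1: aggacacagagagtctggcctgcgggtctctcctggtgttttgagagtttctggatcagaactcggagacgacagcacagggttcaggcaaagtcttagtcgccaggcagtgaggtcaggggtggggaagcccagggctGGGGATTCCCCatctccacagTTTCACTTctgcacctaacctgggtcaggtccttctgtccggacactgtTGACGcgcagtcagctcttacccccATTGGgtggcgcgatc
H2-D1: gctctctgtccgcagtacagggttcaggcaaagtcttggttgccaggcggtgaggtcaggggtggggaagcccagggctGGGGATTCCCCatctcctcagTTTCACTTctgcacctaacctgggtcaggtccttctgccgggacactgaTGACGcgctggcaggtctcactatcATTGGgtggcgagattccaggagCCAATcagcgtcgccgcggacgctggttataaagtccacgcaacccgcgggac
B2m: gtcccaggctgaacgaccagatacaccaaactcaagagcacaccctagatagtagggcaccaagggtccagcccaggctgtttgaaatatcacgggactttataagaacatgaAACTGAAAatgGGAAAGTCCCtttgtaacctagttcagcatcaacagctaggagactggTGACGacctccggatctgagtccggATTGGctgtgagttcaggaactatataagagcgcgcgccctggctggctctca
Tap1: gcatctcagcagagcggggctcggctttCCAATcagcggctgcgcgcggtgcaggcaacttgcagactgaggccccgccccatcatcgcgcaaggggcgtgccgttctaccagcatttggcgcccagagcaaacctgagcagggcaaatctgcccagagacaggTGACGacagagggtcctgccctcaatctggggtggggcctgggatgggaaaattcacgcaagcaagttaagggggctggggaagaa

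H2-K1, H2-D1 and B2m each held all 4 motifs, a combination present in 21 of 27025 promoters (0.0777%). The 21 also include the MHC genes H2-Aa, H2-M2, H2-M3, H2-Q4, H2-Q7 and H2-T22, so the combination is not particular to these 3. Class I promoters are known for such elements, so the low share is no test. Alone, the interferon core was found in 21.6% of promoters, the NF-kappaB consensus in 3.75%, the cyclic AMP core in 17.9% and the CCAAT box in 34.5%. The H2-K1 and H2-D1 sequences were identical at 161 of 177 aligned bases (91.0%) with 0 gaps. Tap1 held only the cyclic AMP core and a CCAAT box, which lie in the stretch it shares with Psmb9: the 2 genes are read in opposite directions from start sites 226 bases apart. Tapbp held 2 CCAAT boxes and Erap1 none of the 4 motifs. Psmb8 held none of them either, but it matched another pattern, the gamma-activated site TTCNNNGAA, which was found in 7.18% of promoters. A match is a description of letters and not evidence of binding. Of the 21 genes with all 4 motifs, 10 were expressed enough to be tested: 5 were higher, 4 lower and 1 did not pass. Over all genes tested, 35.0% were higher and 30.6% lower. The 10 include H2-K1, H2-D1 and B2m, whose opposite directions were already known, so this count is no test of the motifs. H2-M3, called higher, and H2-Q4, called lower, are also among the 10.

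Values are FPKM (fragments counted per kilobase of transcript and scaled to the reads of the library), which can be compared between genes of different length. Differences were tested by limma on log2(FPKM + 1) over the 10882 genes whose mean reached 1 FPKM, and a gene is called higher or lower in NNMT cells at a Benjamini-Hochberg adjusted p under 0.05. Fold changes of means are given on the FPKM scale and log2 differences on the log2(FPKM + 1) scale. The libraries held 31623518 to 39983689 recovered reads. The correlation of log2(FPKM + 1) was 0.9951 to 0.9981 within the groups and 0.956 to 0.964 between them. Nnmt rose from 6.45 ± 1.18 to 16.3 ± 1.70 FPKM (SD, n = 3 each), 2.53-fold, with every NNMT library above every control library. The markers fixed for fibroblasts were high: Col1a1 was at 1709 to 1885 FPKM in control and 3341 to 4028 FPKM in NNMT libraries, and Vim at 1508 to 1520 and 1016 to 1090 FPKM. The 10 fibroblast markers summed to 8170 to 8440 FPKM in control and 10400 to 11800 FPKM in NNMT libraries. Of these, 5 were higher, 3 lower (Thy1, Vim and S100a4) and 2 did not pass, beside 35.0% higher and 30.6% lower over all genes. The 12 immune markers summed to 2.69 to 3.13 FPKM in control and 1.29 to 2.48 FPKM in NNMT libraries, with Cd3e and Tyrobp among those at 0 in every library, and 10 epithelial and endothelial markers to 0.733 to 1.30 and 0.402 to 0.517 FPKM, with Epcam and Krt18 at 0. The part of these marker differences in the results was not tested, and in bulk RNA fewer cells with a message and less message per cell cannot be told apart.

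Of the 10 class I genes, 7 passed the filter on low values, and of these 4 were called higher, 1 lower and 2 did not pass. Over all genes tested, 65.6% were called, 35.0% higher and 30.6% lower, so 5 calls among 7 genes is close to the background. The libraries of the groups did not overlap for 4 of the 7 in the higher and 1 in the lower direction, beside 69.9% of all tested genes (37.2% higher and 32.7% lower). The median log2 difference was 0.17 over the 7 genes and 0.03 over all tested genes. The transporter and tapasin genes Tap2 and Tapbp and both heavy chain genes rose by 1.13- to 1.41-fold. B2m fell 1.62-fold. Nlrc5, Psmb9 and Psmb8 were below the filter and are given from their reads.

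**Figure D1:**
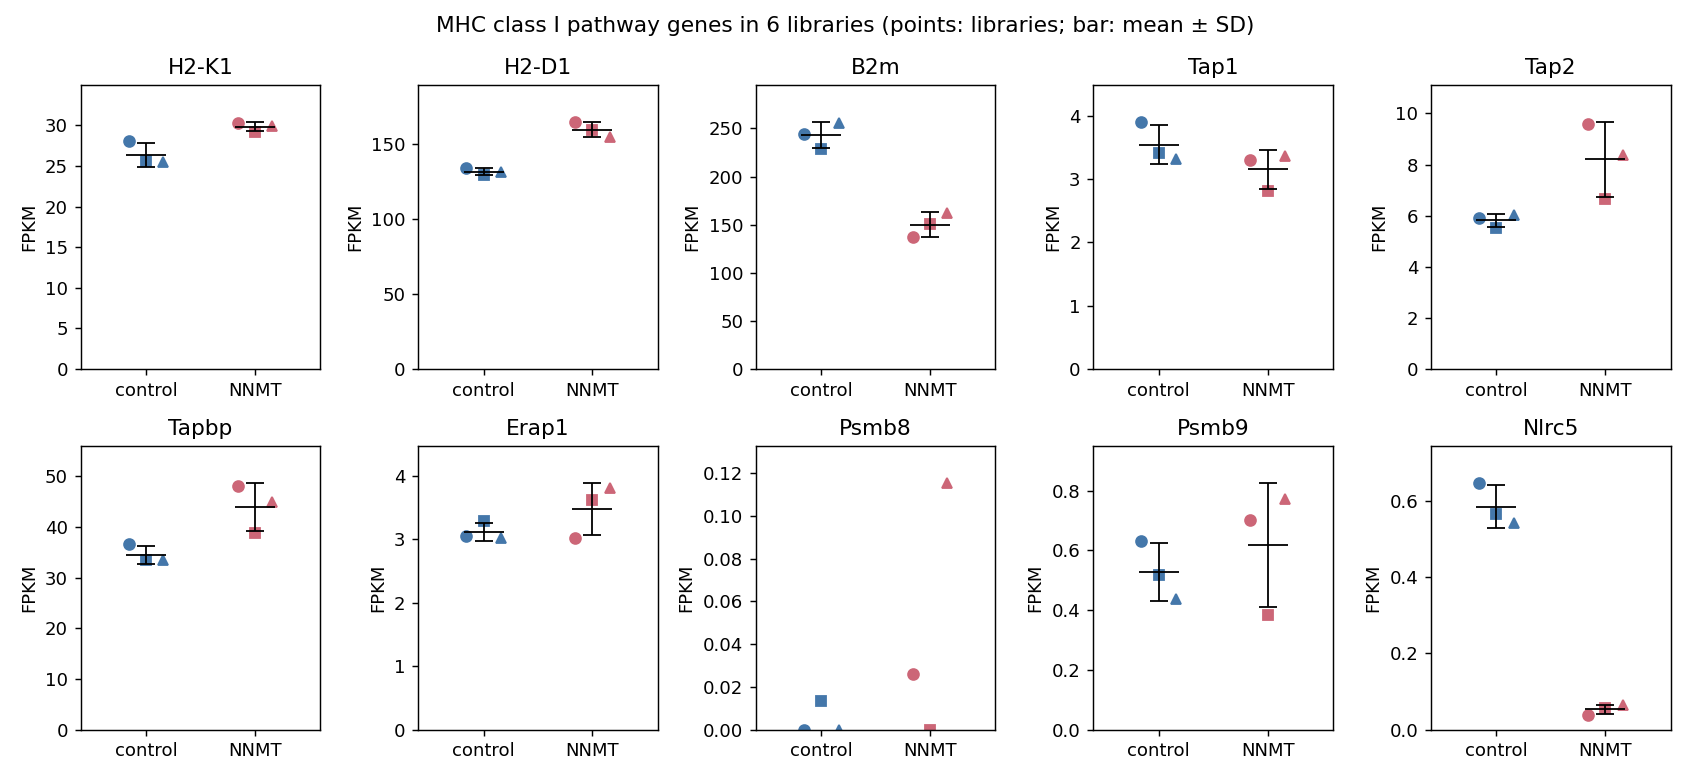
FPKM of the 10 class I pathway genes in 3 control and 3 NNMT libraries; each panel has its own vertical axis from 0, bars show the mean ± SD (none for Psmb8), circles are control replicate 1 and the unnumbered NNMT library, squares replicate 2 and triangles replicate 3. The groups do not overlap for H2-K1, H2-D1, B2m, Tap2, Tapbp and Nlrc5, with B2m and Nlrc5 lower in NNMT cells, and they overlap for Tap1, Erap1, Psmb8 and Psmb9.

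In control cells B2m was the most abundant of the 10 and was followed by H2-D1, Tapbp, H2-K1, Tap2, Tap1 and Erap1, each of these neighbours separated by library values that did not overlap. Nlrc5 and Psmb9 overlapped with each other and Psmb8 was last. In NNMT cells 2 of these boundaries closed: B2m and H2-D1 overlapped, and so did Tap1 and Erap1. Nlrc5 was below Psmb9 with no overlap.

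The heavy chains came first. H2-K1 (ENSMUSG00000061232, chr17:33996017-34000347, minus strand) and H2-D1 (ENSMUSG00000073411, chr17:35262730-35267499, plus strand) encode the classical class I chains that bind peptide. H2-D1 was at 134, 129 and 131 FPKM in control replicates 1, 2 and 3 and at 165 FPKM in the unnumbered NNMT library and 159.5 and 154 FPKM in NNMT replicates 2 and 3. The NNMT libraries were all above the control libraries, which differed little among themselves. Its mean went from 132 ± 2.41 to 159.6 ± 5.14 FPKM, 1.21-fold, on 28910 control and 37508 NNMT reads, and its log2 difference was 0.28 (SE 0.045, limma adjusted p 0.000334).

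H2-K1 was at 28.1, 25.6 and 25.5 FPKM in the control replicates and at 30.3, 29.2 and 29.99 FPKM in the unnumbered NNMT library and NNMT replicates 2 and 3. The groups did not overlap, but control replicate 1 lay close to the NNMT values. The rise was 1.13-fold, from 26.4 ± 1.48 to 29.8 ± 0.584 FPKM, with a log2 difference of 0.17 (SE 0.051, 95% interval 0.06 to 0.29, limma adjusted p 0.0121). The limma adjusted p was 0.0547 without control replicate 2 and 0.0569 without control replicate 3, where the call was lost, and 0.00602 without control replicate 1. The ratio of H2-D1 to H2-K1 was 4.995 ± 0.196 in control and 5.35 ± 0.171 in NNMT libraries, and the groups overlapped (exact two-sided permutation p 0.2).

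Class I chains resemble one another, which matters for counting. Of the 100-base stretches of the H2-D1 transcript, 4.64% also occur in transcripts of 9 other genes, most of them in H2-Q1, whereas none of H2-K1 or B2m do. Class I chains also vary between mouse strains, the labels do not name the strain of this line, and loss of reads from alleles unlike the reference was not tested. 

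B2m (ENSMUSG00000060802, chr2:122147686-122153083, plus strand), the light chain of the classical class I molecules, was the one tested member called lower. Its values were 245, 229 and 256 FPKM in the control replicates and 137, 151 and 162 FPKM in the unnumbered NNMT library and NNMT replicates 2 and 3. The lowest control library was far above the highest NNMT library. The mean fell from 243 ± 13.6 to 150.1 ± 12.6 FPKM, 1.62-fold lower, on 21799 and 14380 reads. The log2 difference was -0.69 (SE 0.066, 95% interval -0.84 to -0.55, limma adjusted p 8.33e-06), and it stayed between -0.75 and -0.63 under every alternative run.

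Because the chains pair in the protein, the ratio of their messages was computed within each library, where it does not depend on scaling. B2m stood at 1.51, 1.48 and 1.63 times the sum of H2-K1 and H2-D1 in the control replicates. In the unnumbered NNMT library and NNMT replicates 2 and 3 it stood at 0.703, 0.799 and 0.880 times that sum. In FPKM, B2m was therefore above the sum of these heavy chains in every control library and below it in every NNMT library. The side of 1 on which the ratio falls depends on the lengths used (860 bases for B2m, 1874 for H2-K1 and 2102 for H2-D1). It also depends on how fully heavy chain reads were counted, which was not tested. The mean ratio was 1.54 ± 0.0828 in control and 0.794 ± 0.0885 in NNMT libraries, a log2 difference of -0.96 (SE 0.104). The exact permutation p was 0.1, the smallest that 3 against 3 libraries can give, and 0.15 after Benjamini-Hochberg adjustment over the 6 ratios computed.

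**Figure D2:**
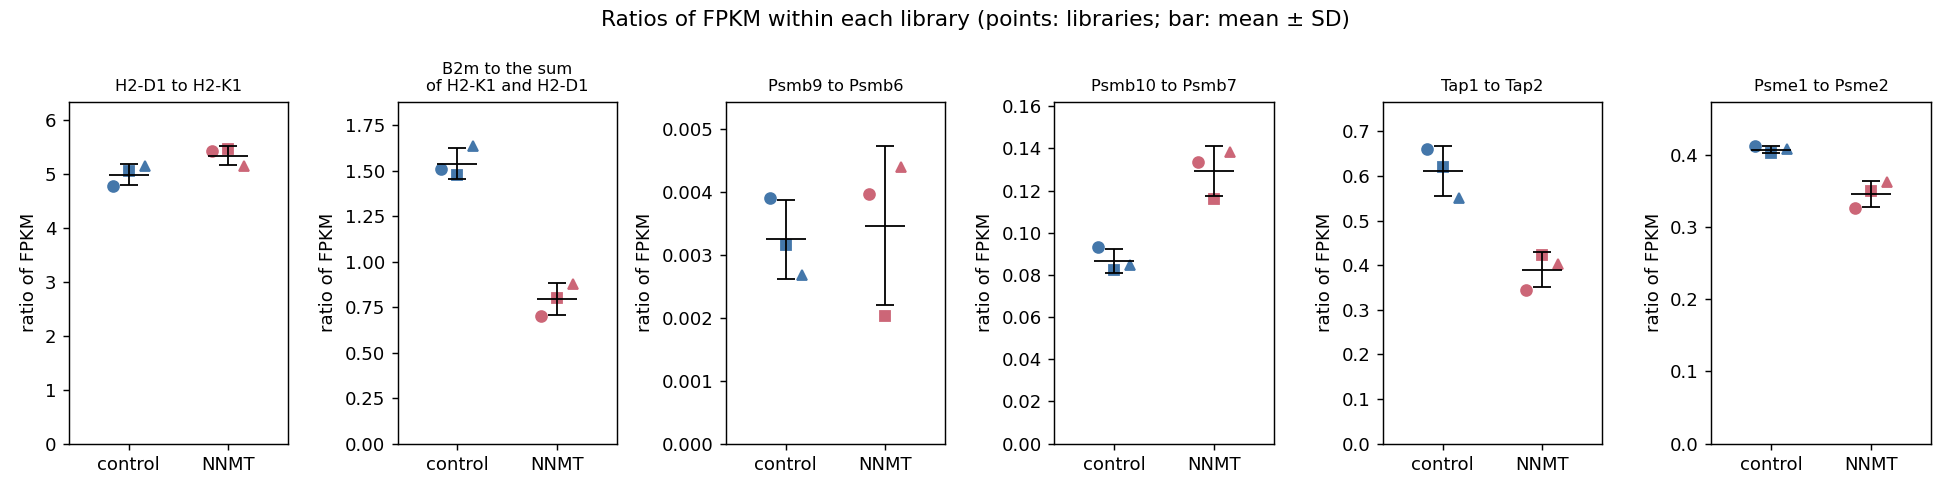
Ratios of FPKM within each library for 6 pairs of class I pathway genes; points are libraries (shapes by replicate, circles for control replicate 1 and the unnumbered NNMT library), bars the mean ± SD, and every vertical axis starts at 0. B2m to the heavy chains has a mean of 1.54 in control and 0.794 in NNMT libraries, and Tap1 to Tap2 0.611 and 0.390, with no overlap, while H2-D1 to H2-K1 and Psmb9 to Psmb6 overlap between the groups.

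Other class I chains went both ways. Of 31 such genes with a row, 10 were tested, with a median log2 difference of 0.04. Of these, 4 were higher, 3 lower and 3 did not pass, beside 35.0% higher and 30.6% lower over all genes. H2-M3, which presents formylated peptides, rose from 6.66 to 8.59 FPKM (limma adjusted p 0.00452). The neonatal Fc receptor chain Fcgrt, a class I-like partner of B2m, rose from 25.1 to 32.8 FPKM (limma adjusted p 0.0127). The Fcgrt groups overlapped, with NNMT replicate 2 at 27.2 FPKM and control replicate 1 at 28.5 FPKM. Its call was lost without the filter on low values (limma adjusted p 0.0586). The lipid-presenting Cd1d1 rose 1.95-fold from 1.33 to 2.59 FPKM and the protein C receptor Procr 1.38-fold from 11.5 to 15.8 FPKM. H2-Q4, a nonclassical chain, fell 4.45-fold from 1.84 to 0.414 FPKM (limma adjusted p 8.61e-06). Ulbp1 and Raet1e, ligands of the activating NK cell receptor NKG2D that need no B2m, fell 2.63-fold from 24.1 to 9.15 FPKM and 2.03-fold from 1.97 to 0.974 FPKM. H2-Q4 is read at 1.61 to 2.27 FPKM in control and 0.392 to 0.447 FPKM in NNMT libraries, the opposite direction from the classical chains beside it on chromosome 17.

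Of the transporter subunits, Tap2 passed the test and Tap1 did not. Tap2 (ENSMUSG00000024339, chr17:34203527-34216321, plus strand) was at 5.91, 5.52 and 6.03 FPKM in the control replicates and at 9.57, 6.65 and 8.37 FPKM in the unnumbered NNMT library and NNMT replicates 2 and 3. All NNMT libraries were above all controls, with NNMT replicate 2 nearest to them. It rose 1.41-fold, from 5.82 ± 0.264 to 8.20 ± 1.47 FPKM (log2 difference 0.42, SE 0.101, limma adjusted p 0.004).

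Tap1 (ENSMUSG00000037321, chr17:34187553-34197225, plus strand) encodes the other subunit of the TAP pump. It was at 3.91, 3.42 and 3.32 FPKM in the control replicates and at 3.31, 2.81 and 3.36 FPKM in the unnumbered NNMT library and NNMT replicates 2 and 3. These ranges overlapped. The means were 3.55 ± 0.314 and 3.16 ± 0.306 FPKM, and the log2 difference of -0.13 had a 95% interval of -0.30 to 0.04 (limma adjusted p 0.166).

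TAP works as a heterodimer of both subunits, so the ratio of their messages was taken as well. Tap1 to Tap2 was 0.661, 0.620 and 0.551 in the control replicates and 0.346, 0.422 and 0.402 in the unnumbered NNMT library and NNMT replicates 2 and 3, with no overlap. The mean ratio was 0.611 in control and 0.390 in NNMT libraries, a log2 difference of -0.65 (SE 0.116, exact permutation p 0.1, adjusted over the 6 ratios 0.15). The ratio was below 1 in all 6 libraries.

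Tapbp (ENSMUSG00000024308, chr17:33915899-33929292, plus strand) encodes tapasin, the bridge between TAP and the empty heavy chain. It was at 36.5, 33.5 and 33.4 FPKM in the control replicates and at 48.2, 38.8 and 44.9 FPKM in the unnumbered NNMT library and NNMT replicates 2 and 3. No library overlapped, and NNMT replicate 2 was again the lowest of its group. It rose 1.27-fold, from 34.5 ± 1.77 to 43.9 ± 4.78 FPKM (log2 difference 0.34, SE 0.075, limma adjusted p 0.00251). Tapbp overlaps Zbtb22 on the same strand, and the deposited level of Zbtb22 went the other way, 20.9 against 17.7 FPKM.

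Other loading and folding partners in the endoplasmic reticulum were tested as a list of 14 genes: 8 were higher, 1 lower and 5 did not pass, with a median log2 difference of 0.15, beside 35.0% higher and 30.6% lower over all genes. The count of higher genes was 6 without control replicate 1 or 3 and 5 at an adjusted p under 0.01, and 2 were lower under medians-of-ratios scaling. Among the chaperones of the peptide loading complex, calreticulin (Calr) rose 1.11-fold from 649 to 721 FPKM (limma adjusted p 0.0167). Calr lies on chromosome 8, where 323 of 617 tested genes were higher (median log2 difference 0.16). The part of that shift in the rise of Calr was not tested. The tapasin homologue Tapbpl, which edits peptides outside the complex, rose 1.20-fold from 3.83 to 4.58 FPKM (limma adjusted p 0.021). Calnexin (Canx, 193 and 206 FPKM, limma adjusted p 0.14) and ERp57 (Pdia3, 319.8 and 329.8 FPKM, limma adjusted p 0.573) did not pass. The largest rises in the list were in glycan quality control: Uggt1, which tags misfolded glycoproteins for another round of folding, went from 29.7 to 46.9 FPKM, and the glucosidase II subunits Ganab and Prkcsh went from 98.5 to 142 and from 96.9 to 149 FPKM. Bcap31, an export receptor of the endoplasmic reticulum known to bind class I molecules, fell 1.86-fold from 122 to 65.6 FPKM (limma adjusted p 1.72e-07). Bcap31 lies on the X chromosome, where 305 of 338 tested genes were lower, and the part of that shift in its fall was not tested.

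**Figure D3:**
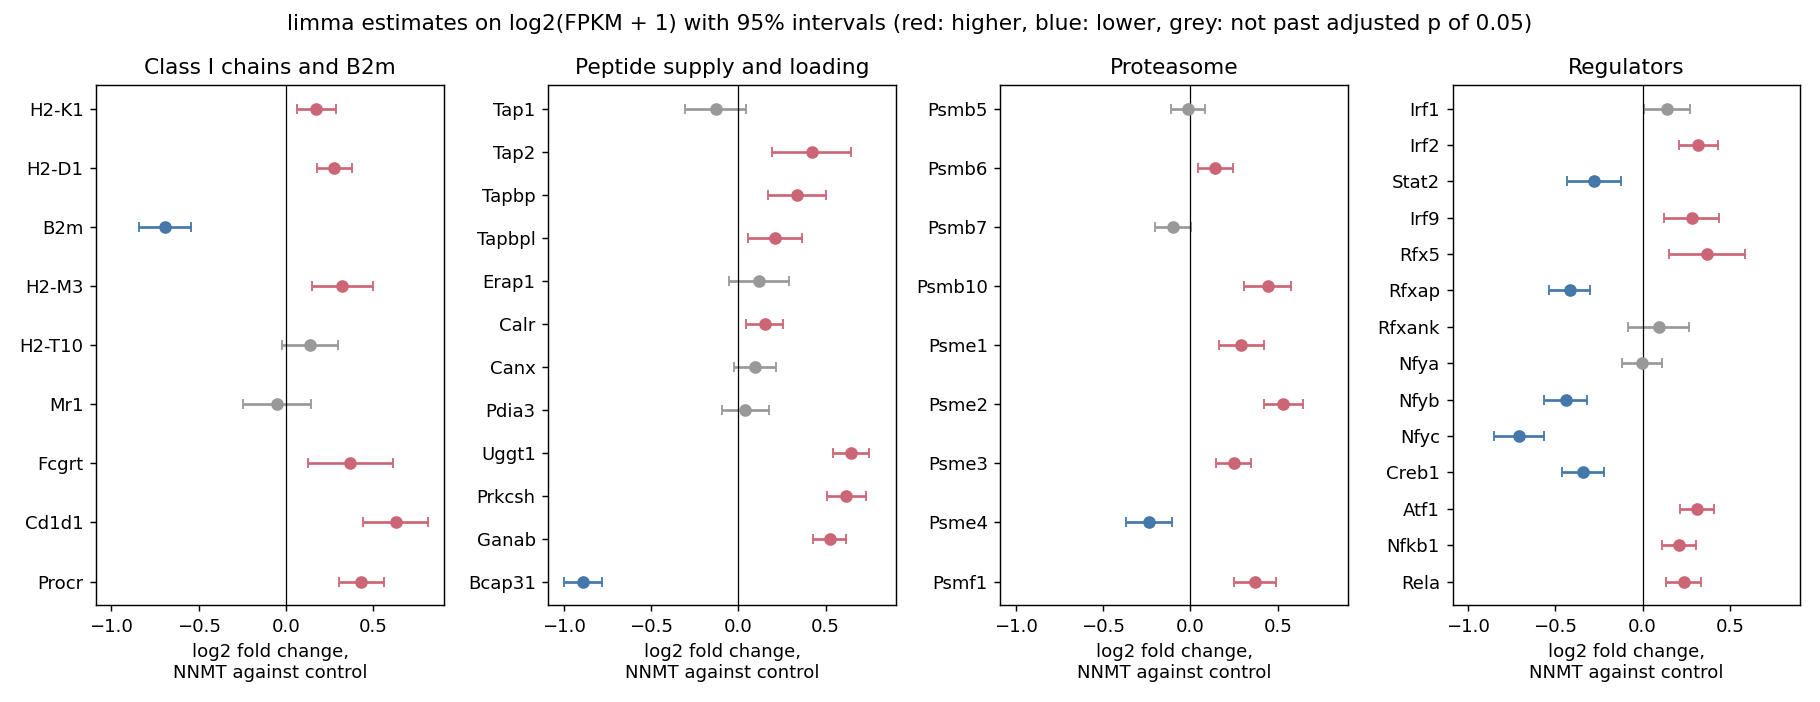
Log2 differences (NNMT minus control, log2(FPKM + 1)) with 95% limma intervals for tested genes of the class I pathway, in 4 panels by role; red marks genes called higher, blue lower and grey those that did not pass. H2-K1 and H2-D1 lie to the right of 0 and B2m to the left, Tap2 and Tapbp to the right with Tap1 crossing 0, and regulators fall on both sides.

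The interferon-inducible proteasome subunits were barely or weakly read. Psmb8 (ENSMUSG00000024338, chr17:34197721-34201454, plus strand), the beta5i catalytic subunit, had 0, 1 and 0 reads in the control replicates and 2, 0 and 8 reads in the unnumbered NNMT library and NNMT replicates 2 and 3. That is at most 0.115 FPKM, 8 of the 10 NNMT reads were in replicate 3, and no fold is given. Psmb9 (ENSMUSG00000096727, chr17:34181987-34187764, minus strand), the beta1i subunit, was at 0.632, 0.517 and 0.438 FPKM in the control replicates and at 0.702, 0.383 and 0.773 FPKM in the unnumbered NNMT library and NNMT replicates 2 and 3. The ranges overlapped, with NNMT replicate 2 the lowest of the 6. On 160 control and 201 NNMT reads, limma-voom gave a log2 difference of 0.19 (SE 0.262, adjusted p 0.577), which did not pass.

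Their constitutive counterparts were far more abundant. Psmb5, which beta5i replaces, was at 85.1 and 84.3 FPKM in control and NNMT cells (limma adjusted p 0.779). Psmb6, which beta1i replaces, was at 163 and 180.2 FPKM (limma adjusted p 0.017), a call that was lost when any 1 control library was left out. Psmb7 was at 139 and 129.6 FPKM (limma adjusted p 0.0892), and it was called lower without NNMT replicate 2 and under medians-of-ratios scaling. Psmb9 amounted to 0.00325 times Psmb6 in control and 0.00347 times in NNMT libraries. That level rests on a Psmb9 length of 2884 bases. The Psmb9 gene also overlaps the more abundant Tap1 gene on the other strand, and the strand setting of the counting is not known.

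The third inducible subunit and the proteasome activators were abundant enough to test. Psmb10 (beta2i), on chromosome 8 and outside the MHC, was at 12.8, 11.5 and 11.7 FPKM in the control replicates and 16.5, 15.8 and 17.9 FPKM in the unnumbered NNMT library and NNMT replicates 2 and 3. It rose 1.39-fold with no overlap (limma adjusted p 0.000107), and the ratio of Psmb10 to Psmb7, the subunit it replaces, was 0.0866 and 0.129. That ratio differed by 0.58 on the log2 scale (SE 0.094, exact permutation p 0.1, adjusted over the 6 ratios 0.15). On chromosome 8, 323 of 617 tested genes were higher. The part of that shift in the rise of Psmb10 was not tested. The PA28 cap genes Psme1 and Psme2, which open the proteasome and are inducible by interferon gamma, rose from 19.6 to 24.2 FPKM and from 48.1 to 70.0 FPKM. The ratio of Psme1 to Psme2 was 0.407 in control and 0.346 in NNMT libraries with no overlap (exact permutation p 0.1, adjusted over the 6 ratios 0.15). In the list of 7 genes that holds these, 5 were higher, 1 (Psme4) lower and 1 did not pass. Over all genes tested, 35.0% were higher and 30.6% lower.

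The rest of the proteasome was read beside a background of 35.0% higher and 30.6% lower. Of 11 other core subunits 2 were higher, 4 lower and 5 did not pass, and of 18 subunits of the 19S cap 3 were higher, 6 lower and 9 did not pass. The median log2 differences were 0.02 and -0.03. Psmd14, the deubiquitinase of the cap, fell 1.74-fold from 47.2 to 27.1 FPKM, and Psmb2, a core subunit without catalytic activity, fell 1.38-fold from 142 to 103 FPKM. Psmb2 lies on chromosome 4, where 390 of 688 tested genes were lower. The part of that shift in the fall of Psmb2 was not tested. The core subunits called higher were Psmb4 (226 and 258 FPKM) and Psma7 (143 and 159 FPKM), and Psma7 lost its call when any control library or NNMT replicate 2 or 3 was left out, under medians-of-ratios scaling, without the filter and by limma without trend.

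Erap1 (ENSMUSG00000021583, chr13:74639568-74693201, plus strand) encodes the aminopeptidase that trims peptides to class I length in the endoplasmic reticulum. It was at 3.05, 3.28 and 3.02 FPKM in the control replicates and at 3.02, 3.62 and 3.81 FPKM in the unnumbered NNMT library and NNMT replicates 2 and 3. The unnumbered NNMT library lay among the controls and the other NNMT libraries above them. The means were 3.12 ± 0.143 and 3.48 ± 0.409 FPKM and the log2 difference of 0.12 had a 95% interval of -0.05 to 0.29 (limma adjusted p 0.196). Without the unnumbered NNMT library the difference was 0.20 (limma adjusted p 0.03). The Erap1 gene overlaps the more abundant Cast gene on the other strand, which stood at 45.0 and 35.5 FPKM, and the sources used here do not say whether strand was used in counting.

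Of 12 further peptidases, 4 were lower, 2 higher and 6 did not pass, beside 30.6% lower and 35.0% higher over all genes. Lnpep, the endosomal aminopeptidase IRAP that trims peptides for cross-presentation, fell from 12.6 to 9.45 FPKM, and the dipeptidase Cndp2 and the cytosolic Dpp9 fell 1.35-fold each. Bleomycin hydrolase (Blmh) rose from 22.9 to 26.9 FPKM and the oligopeptidase Thop1, which destroys class I peptides in the cytosol, from 31.0 to 35.1 FPKM. The count of higher genes was 4 without the unnumbered NNMT library.

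Nlrc5 (ENSMUSG00000074151, chr8:94434356-94527272, plus strand), the class I transactivator, showed the widest gap of the 10 and was also one of the least expressed. It was at 0.647, 0.566 and 0.541 FPKM in the control replicates and at 0.0396, 0.0570 and 0.0634 FPKM in the unnumbered NNMT library and NNMT replicates 2 and 3. The reads behind these values were 153, 153 and 119 in the control replicates and 11, 14 and 16 in those NNMT libraries. The groups did not overlap, as was so for 47.7% of the 20528 genes above 0 in any library, and the ratio of mean FPKM was 10.96 (9.71 to 12.1 when 1 library was left out).

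Nlrc5 was below the filter of the main test. Without the filter it was called lower by limma (log2 difference -0.59 on the log2(FPKM + 1) scale, SE 0.051, adjusted p 0.000156), in a fit that called 38.5% of 20528 genes and 17.1% lower. By limma-voom on reads its log2 difference was -3.44 (SE 0.294, adjusted p 6.66e-08), in a fit that called 53.8% of 15910 genes, 3822 of them lower. The log2(FPKM + 1) value understates the change of a gene this low. An antisense transcript, 9330175E14Rik, overlaps the Nlrc5 gene. It was listed at 0.0674 FPKM in control and 0.00608 FPKM in NNMT cells, also lower, with no test made. Where the 2 overlap their reads cannot be told apart without strand.

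The heavy chain, Tap2 and Tapbp genes were thus higher in the same libraries in which the Nlrc5 message was lower. The other regulators of class I genes were split. Of 20 genes 18 were tested: 8 were higher, 6 lower and 4 did not pass, beside 35.0% higher and 30.6% lower over all genes. The DNA-binding factors of the promoter complex went different ways. Rfx5 rose 1.45-fold from 1.98 to 2.87 FPKM (limma adjusted p 0.00665), its partner Rfxap fell 1.39-fold from 8.43 to 6.06 FPKM, and Rfxank did not pass. In the NF-Y trimer, which binds the CCAAT box, Nfyc fell 1.67-fold from 27.4 to 16.4 FPKM and Nfyb 1.43-fold from 7.37 to 5.16 FPKM, whereas Nfya was at 26.3 and 26.2 FPKM. Of the factors that bind the cyclic AMP site, Creb1 fell from 8.06 to 6.15 FPKM and Atf1 rose from 32.8 to 41.0 FPKM.

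The interferon regulatory factors Irf1 and Irf2 are given first, and then interferon receptors and signalling genes, which went both ways. Irf1 was at 7.95 and 8.86 FPKM and did not pass (limma adjusted p 0.06). Irf2 rose 1.28-fold from 8.07 to 10.3 FPKM. Among 12 interferon receptors and signalling genes 5 were higher, 4 lower and 3 did not pass, beside 35.0% higher and 30.6% lower over all genes. The type I receptor chains Ifnar2 and Ifnar1 rose 2.09-fold (5.75 to 12.0 FPKM) and 1.35-fold (13.1 to 17.6 FPKM). The kinase Jak1 fell 1.52-fold (49.4 to 32.4 FPKM) and the interferon gamma receptor chain Ifngr1 1.42-fold (13.7 to 9.65 FPKM). Ifnar1 and Ifnar2 lie on chromosome 16, where 222 of 347 tested genes were higher, and Jak1 and Nfyc on chromosome 4, where 390 of 688 were lower. The part of those chromosome-wide shifts in these genes was not tested.

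Most of the 10 genes lie close together, and the genes around them went both ways. Tapbp, H2-K1, Psmb9, Tap1, Psmb8, Tap2 and H2-D1 follow one another within 1351.6 kb of chromosome 17. Tap1 and Psmb8 are 495 bases apart and Psmb8 and Tap2 2072 bases, yet Tap2 rose, Tap1 did not pass and Psmb8 was close to 0. Between Tapbp and H2-D1, with the 10 genes left out, 44 genes were tested, of which 5 were higher, 18 lower and 21 did not pass (median log2 difference -0.07). These fell into 2 stretches: from Tapbp to Tap2, which holds 3 of the 4 class I genes called higher here, 5 of 15 other tested genes were higher and 3 lower, and from Tap2 to H2-D1 0 of 29 were higher and 15 lower. Within 500 kb there were 10 higher and 11 lower genes around Tapbp and around H2-K1, 10 and 10 around Tap2, and 3 and 15 around H2-D1. These windows left out only the gene at their centre, so other class I genes are counted in them. The higher genes around Tapbp include H2-K1 and Tap2. Those around H2-K1 include Tapbp and Tap2, and those around Tap2 include Tapbp and H2-K1. Over chromosome 17 as a whole 86 of 542 tested genes were higher and 268 lower.

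**Figure D4:**
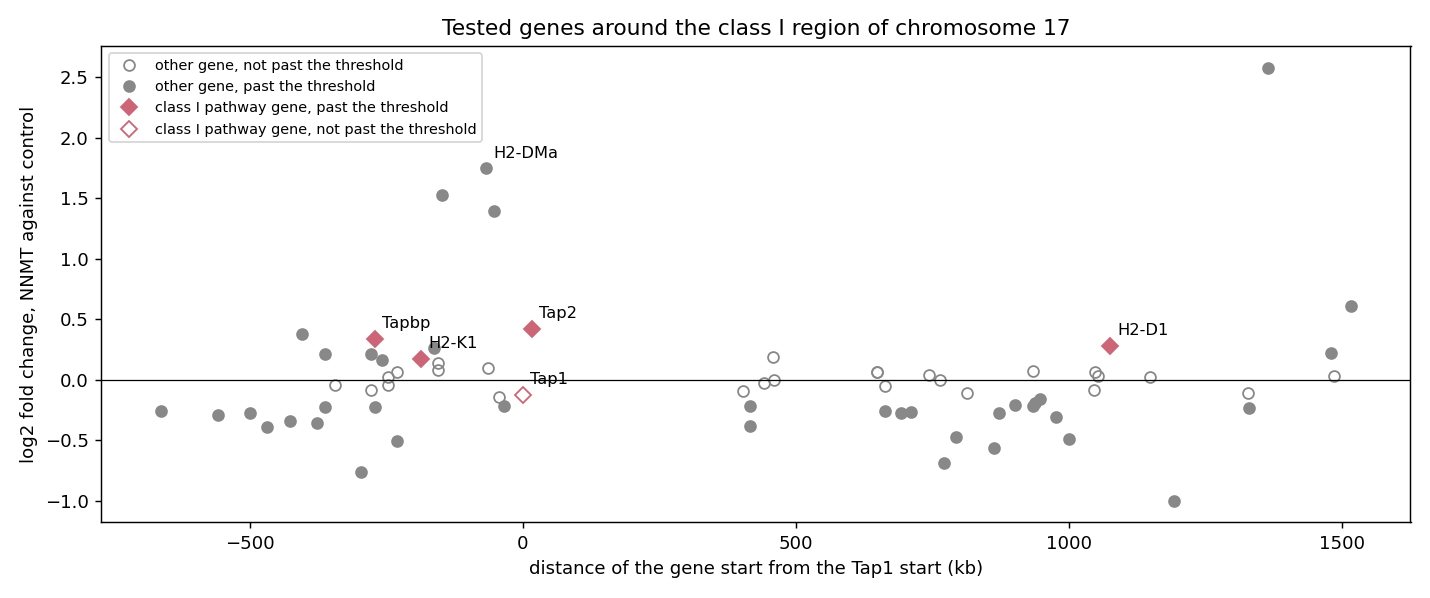
Log2 difference of each tested gene (NNMT minus control, vertical axis) against the distance of its start from the start of Tap1 in kb (horizontal axis) around the class I region of chromosome 17; diamonds are class I pathway genes and circles other genes, filled where past the threshold. Tapbp, H2-K1, Tap2 and H2-D1 lie above 0 and Tap1 just below it, and most filled circles lie below 0.

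B2m and Nlrc5 lie elsewhere. Within 500 kb of B2m on chromosome 2, 7 genes were tested and 6 of them were lower (median log2 difference -0.21), against 323 lower and 263 higher of 883 over the chromosome. B2m at -0.69 was below that neighbourhood's median. Around Nlrc5 on chromosome 8, 15 of 21 tested genes were higher and 2 lower, and over the chromosome 323 of 617 were higher and 86 lower, so Nlrc5 went against its neighbours. Around Erap1 on chromosome 13, 2 of 8 were higher and 2 lower.

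Genes that retrieve or destroy class I chains after synthesis were also read. Of 12 tested, 6 were higher, 2 lower and 4 did not pass, beside 35.0% higher and 30.6% lower over all genes. Derl1, the channel protein through which misfolded heavy chains leave the endoplasmic reticulum, rose 1.42-fold from 37.7 to 53.7 FPKM, and the ubiquitin ligase Syvn1 rose 1.28-fold. March9, a ligase that marks surface class I for degradation, fell 1.30-fold from 4.08 to 3.14 FPKM, and Arf6, which acts in the recycling of class I from endosomes, fell 1.24-fold from 61.9 to 49.8 FPKM. These are message levels, and class I protein at the cell surface was not measured here.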

How the data were processed

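RNA was extracted from 3 control and 3 NNMT cultures of 3T3 fibroblasts and sequenced. The authors used CASAVA and STAR 2.5 with the mm10 build, per the submitters' processing notes; the sources used here do not give the gene counter, its strand setting or the annotation. The values used are the deposited FPKM per gene and library; the unit is not named in the file and was read from the values, which are whole multiples of a step per library and gene length. Dividing by these steps gave whole reads for all 20528 genes with a value above 0 (14597 with the longest GENCODE M21 transcript, 1131 with another annotated length and 4800 with a searched length; within 0.01 read). A searched length was picked because it gave whole reads, so whole reads for those 4800 genes are no test of the unit. Symbols came from GENCODE M21 for 34490 of 35275 rows.

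The test was limma 3.58.1 (R 4.3.3) with trend and robust moderation on log2(FPKM + 1) for genes whose mean reached 1 FPKM, two-sided, with Benjamini-Hochberg adjustment over all of them, and without a replicate block. For lower genes the same fit without the filter and limma-voom on recovered reads (at least 10 over the libraries) were used. Ratios were compared by exact two-sided permutation over the 6 libraries. Alternatives were quantile and medians-of-ratios scaling, other pseudocounts, filters and thresholds, limma without trend or robust moderation, limma-voom, a replicate block and leaving out each library. Pairs of control libraries differed by 5.7 to 6.96 times the sampling noise and pairs of NNMT libraries by 9.85 to 20.14 times (chi-square per degree of freedom). No library was therefore a repeat reading of another. These values cannot tell separate cultures from separate preparations of 1 culture.

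The 10 genes and the lists of pathway and marker genes were chosen with earlier results of these data known. Named were all 10 genes in every library, a fixed set of partners (constitutive proteasome subunits, Psmb10, Psme1, Psme2, Calr, Canx, Pdia3, Tapbpl, Irf1, Rfx5 and Nnmt), and up to 6 genes per list with the smallest adjusted p (some genes are not reported here); Rfxank, Nfya, Fcgrt, March9, Cd274, the class II and Lyz2 reads and the markers singled out were named after their values were seen, to complete a complex, a pair or a count. Promoter sequences are from RefSeq on GRCm38.p6.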

Additional observations from a re-analysis of the deposited data

How the results depend on the processing

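Of the 5 calls among the 10 genes, those of B2m, H2-D1, Tap2 and Tapbp held under all 16 alternative fits run and at an adjusted p under 0.01; their log2 differences ranged from -0.75 to -0.63, 0.25 to 0.32, 0.20 to 0.55 and 0.27 to 0.42. The lowest values of Tap2 came with a pseudocount of 10 FPKM, which shrinks low genes by construction. H2-K1 (0.13 to 0.22) lost its call without control replicate 2 or 3 and at an adjusted p under 0.01 (3 genes higher), and Erap1 (0.04 to 0.20) gained one without the unnumbered NNMT library. Requiring an absolute log2 difference of at least 0.5 left 0 genes called higher, and dropping the filter or using limma-voom made 2 genes lower, since Nlrc5 then entered the test. Leaving out each library in turn gave 3 to 5 genes called higher and 1 lower throughout. It gave log2 differences of 0.07 to 0.13 for H2-D1 to H2-K1, -1.04 to -0.88 for B2m to the heavy chains, -0.72 to -0.56 for Tap1 to Tap2, 0.53 to 0.65 for Psmb10 to Psmb7, -0.27 to -0.20 for Psme1 to Psme2 and -0.17 to 0.38 for Psmb9 to Psmb6. The last ratio, 0.04 in the main analysis, also reversed to -0.066 with a pseudocount of 1 FPKM, and to -0.09 without control replicate 3, -0.10 without the unnumbered NNMT library and -0.17 without NNMT replicate 3; the cause was not tested. Psmb8 to Psmb5 was not computed because libraries were listed at 0. The groups share the replicate numbers 2 and 3 only, and their deviations correlated at 0.212 and 0.11; a fit with the replicate block on these 4 libraries gave -0.63 for B2m, 0.27 for H2-D1, 0.21 for H2-K1, 0.32 for Tap2 and 0.31 for Tapbp and changed no call among the 10 genes. With 1 residual degree of freedom its p-values rest on the spread pooled over genes. Scaling moved the median of all tested genes from 0.03 to 0.01 or less. Few reads stand behind Psmb8, with 1 control and 10 NNMT reads, and Psmb9, with 160 and 201.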

Other observations

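Genes of class II presentation, the pathway that displays peptides from endosomes and is normally confined to specialised immune cells, were read unevenly. Of 12 genes 4 were tested. H2-DMa, a chain of the peptide editor DM that lies in the same stretch of chromosome 17 as Tap1, rose 4.46-fold from 2.16 ± 0.108 to 9.61 ± 1.12 FPKM (limma adjusted p 5e-08), and Ifi30, a thiol reductase of endosomes, rose 1.83-fold from 20.9 to 38.3 FPKM. H2-DMb1, which encodes the other DM chain, was at 2.47 and 1.99 FPKM (limma adjusted p 0.048), a call that was lost without control replicate 1 or 2 or NNMT replicate 2 or 3, without the filter on low values and by limma-voom.

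Other class II genes stayed far lower. The invariant chain Cd74 had 10, 7 and 7 reads in the control replicates and 47, 58 and 64 in the unnumbered NNMT library and NNMT replicates 2 and 3. H2-Ab1 had 2, 2 and 0 reads in the control replicates and 0, 8 and 12 in those NNMT libraries, and H2-Eb1 had 0 in every control and 0, 6 and 11. The myeloid gene Lyz2 had 12, 4 and 0 reads in the control replicates and 2, 20 and 26 in the same NNMT libraries. H2-Ab1, H2-Eb1 and Lyz2 were thus highest in NNMT replicates 2 and 3, where Psmb8 had 0 and 8 reads. The part of other cells in these reads was not tested.

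Of 6 tested ligands by which a cell engages NK and T cells, 4 were higher, 1 lower and 1 did not pass, beside 35.0% higher and 30.6% lower over all genes. There were 3 higher and 2 lower under quantile normalization, and 3 higher by limma-voom, without the filter, and without control replicate 1, control replicate 2 or NNMT replicate 3. Cd47, the signal that restrains phagocytes, rose 1.57-fold from 11.9 to 18.7 FPKM, Cd276 (B7-H3) 1.48-fold from 21.4 to 31.8 FPKM and Nectin2 1.56-fold from 20.96 to 32.8 FPKM. Pvr, a ligand of the same receptors as Nectin2, fell 1.43-fold from 25.9 to 18.1 FPKM. Cd274 (PD-L1) was not tested, at 0.143 and 0.247 FPKM.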
